A study of Mus musculus with 9 samples.

Results

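Esco1 and Sertad2 were each read through 2 overlapping amplicons of the 5′ untranslated region (5′ UTR) of their transcripts. All rows of the deposited table that belong to the Esco1 and the Sertad2 transcript were taken, which gave 4 of 161 amplicons, 2 of 69 transcripts and 826 of 32967 nucleotide rows. Of these rows, 414 were A or C, the bases read here, of 16178 A and C nucleotides tested in all. Amplicons are named by gene and designed bounds, numbered along the transcript as in the deposited table: Esco1 104-354, Esco1 291-541, Sertad2 47-297 and Sertad2 111-361. The genome build was not given in the sources used here, so positions are transcript positions.

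The RNA came from E14 mouse embryonic stem cells of the genotype E14TG2a, a single line, in 3 groups of 3 samples that the protocol calls independent. ATP-depleted cells were kept for 10 min without glucose, in medium holding both sodium azide and 2-deoxyglucose at 10 mM each, and these agents stayed in all later media; untreated cells received neither. Both groups of cells were then probed at 37 °C for 6 min with dimethyl sulfate (DMS) at 1.6%, buffered by 250 mM bicine. The other group was RNA refolded in vitro, with DMS conditions not given in the sources used here. No sample without DMS was analysed here, and amplicon profiles hold no marker genes against which the cell type could be checked.

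DMS methylates the Watson-Crick face of A and C where it is free, so a base in a helix or under a bound protein is less reactive than an exposed one. In mutational profiling the reverse transcriptase misreads a methylated base, and mutations counted along the cDNA give a profile of accessibility. Stable helices in a 5′ UTR can slow the scanning ribosome, and helicases, many of which use ATP, unwind them in cells. Esco1 encodes an acetyltransferase that modifies the cohesin subunit SMC3 and takes part in sister chromatid cohesion. Sertad2 encodes a SERTAD-domain coregulator, also called TRIP-Br2, which has been linked to E2F-dependent transcription and the cell cycle.

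Short stretches of the Sertad2 5′ UTR, copied from the deposited table and written 5′ to 3′ as DNA, are shown here because they hold nucleotides, called between refolded RNA and untreated cells, that the results turn on. Capitals mark A and C nucleotides whose reactivity differed between these groups at an adjusted p under 0.05 in at least 1 of the 2 amplicons.
Sertad2 70 to 76, with the rise at 73: gggCgtc
Sertad2 113 to 126, with falls at 116, 120 and 123: ccgCctcCacCatt
Sertad2 136 to 162, with 7 falls: tccCgaCtCgCaAgCagaggacgCcgg
Sertad2 283 to 307, the predicted partner of 139 to 159, with a rise at 287: gtggAcctgcttgtgatatatgttg
Sertad2 206 to 215, with rises at 209 and 212: ccgCggCggg
Sertad2 310 to 325, with rises at 313 and 322 and a fall at 316: taaAggAggaaaAcgg

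The values are log2 CPM, mutation counts per 1000000 of a library size particular to each amplicon and sample. This size did not in general equal the sum of the recovered counts. How it was set was not given in the sources used here. A nucleotide is thus measured relative to the scale of its amplicon library. A change in overall reactivity cannot be told from one of scale. Whole mutation counts were recovered for 1449 of 1449 amplicon and sample libraries. The 36 libraries of Esco1 and Sertad2 held 3485 to 44605 counts, with a median of 13016.5, against a median of 40815 over all libraries. The coverage of each position is unknown, no mutation rate was computed, and amplified cDNA counts are not independent molecules. Esco1 291-541 was the least evenly read: ATP-depleted replicate 2 held 34254 counts and untreated replicate 2 held 20612, while the other 4 in-cell libraries held 3485 to 5973. Its untreated profiles also correlated least across nucleotides, with Pearson's r of 0.419 to 0.619 between samples, where the untreated profiles of the other 3 amplicons gave 0.774 to 0.897.

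The amplicons differed in base composition. GC content over the bases read was 71.6% in Esco1 104-354, 71.0% in Sertad2 47-297 and 63.8% in Sertad2 111-361, against a median of 57.9% over all amplicons. Esco1 291-541 was AU-rich, at 38.5%, and only 8 of 161 amplicons were lower. RNAfold gave minimum free energies of −92.7, −92.8 and −92.2 kcal/mol for the 3 GC-rich amplicons in that order, and −42.6 kcal/mol for Esco1 291-541. Folded alone, 34.7% of the tested nucleotides of Sertad2 111-361 were predicted unpaired, the lowest of the 4, and 51.9% of Esco1 291-541, the highest.

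Sertad2 was less reactive after refolding along 1 stretch near the start of the 111-361 amplicon. Differences between groups are on the scale log2(CPM + 3196.78), which understates the change of weak nucleotides, and a nucleotide, window or amplicon was called where limma's p, Benjamini-Hochberg adjusted over all features of its kind, was under 0.05. In vitro against untreated, 22 of 205 tested Sertad2 nucleotides were called, 7 higher and 15 lower, or 10.7%. Over all amplicons 16.3% were called, 8.08% higher and 8.18% lower, so Sertad2 lay below the background in number. Of the 15 lower nucleotides 13 were C, of 141 tested, and the 2 others were A148 and A316. Over all amplicons 11.2% of C were called lower and 6.7% higher. The median difference of all tested Sertad2 nucleotides was 0.01, near that of all features at 0.0047. The count rested on the untreated samples: it was 7, 6 and 6 without untreated replicate 1, 2 or 3, 12 without in vitro replicate 2 and 14 without ATP-depleted replicate 2. A fit of the 6 compared samples alone gave 8. Of the 22 calls 3 were kept in all 9 fits that left out 1 sample, and each of the others was lost in 3 to 8 of them.

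Averaged over 20-nt windows, Sertad2 positions 133 to 152 in the 111-361 amplicon showed the largest fall of the 4 amplicons. Mean log2 reactivity over its 11 tested nucleotides was 13.37, 13.32 and 13.32 in the untreated samples, 12.92, 13.07 and 13.20 in the ATP-depleted samples, and 12.55, 12.32 and 12.64 in vitro. All in vitro samples lay below all in-cell samples, and the ATP-depleted samples lay between the other groups without overlap. The ATP-depleted minus untreated difference of −0.27 was not called (limma adjusted p = 0.708). The window fell by 0.83 in vitro against untreated (SE 0.0914, limma adjusted p = 0.000914), and by 0.56 against ATP-depleted cells (adjusted p = 0.00387). Only 2 of 1617 windows, this one included, had an in vitro minus untreated difference as low. It was called in 18 of 18 alternatives that hold it, at differences of −1.71 to −0.58. It is the first window of its amplicon; of 154 first windows 10.4% were called lower, as were 10.4% of the other windows.

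All 11 tested nucleotides of this window had a negative difference, and 5 were called lower: C139, C142, C146, A148 and C150. C142 read 7355, 6302 and 7041 CPM in untreated cells, 3296, 2648 and 6980 CPM in ATP-depleted cells, and 1936, 478 and 1058 CPM in vitro. The in vitro samples were lowest and did not overlap either in-cell group. C142 fell by 1.23 (SE 0.213, limma adjusted p = 0.008) against untreated and by 0.76 (adjusted p = 0.049) against ATP-depleted cells. The second call was kept in 5 of 18 alternatives and lost in every fit that left out 1 sample except the one without in vitro replicate 1. A148 read 7355, 6177 and 3589 CPM in untreated cells, 3296, 3825 and 5548 CPM in ATP-depleted cells, and 1400, 1024 and 1396 CPM in vitro. It fell by 0.97 against untreated (adjusted p = 0.0103) and by 0.72 against ATP-depleted cells (adjusted p = 0.0316), a call kept in 9 of 18 alternatives. C139 fell by 0.99 against untreated (adjusted p = 0.0243), from 9028, 5361 and 7858 CPM to 1162, 2799 and 2496 CPM.

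Just downstream, C159 was low in both groups other than untreated. It read 4148, 3229 and 4770 CPM in untreated cells, 243, 948 and 656 CPM in ATP-depleted cells, and 387, 1024 and 212 CPM in vitro. Every untreated sample exceeded every other sample, while the ATP-depleted and in vitro samples overlapped. The in vitro fall of 0.96 was called (limma adjusted p = 0.00339), and like those of C142 and A148 against untreated it was called under all 18 alternatives. The ATP-depleted difference of −0.93 was not called: its unadjusted p of 8.96e-05 was the smallest of all 16178 nucleotides, and its adjusted p was 0.9999. These values rest on few counts, 2 to 59 per library, and the reading of C159 in Sertad2 47-297 gave differences of −0.40 (in vitro, adjusted p = 0.118) and −0.22 (ATP-depleted), neither called.

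**Figure D1:**
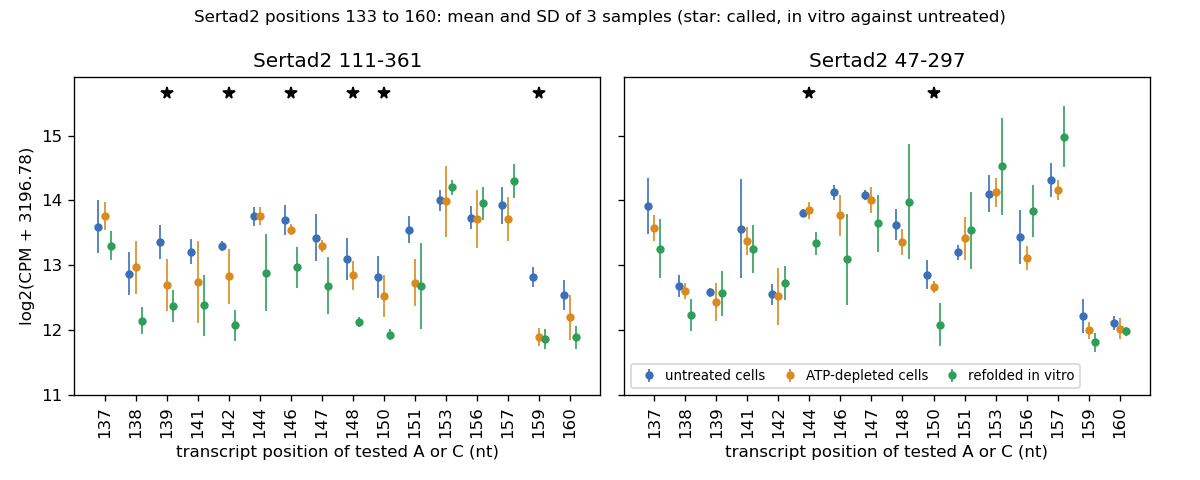
Reactivity, log2(CPM + 3196.78), of each tested Sertad2 nucleotide from position 137 to 160, read in the 111-361 amplicon (left) and the 47-297 amplicon (right). Points are group means and bars the SD of 3 samples; stars mark nucleotides called between in vitro and untreated. In the 111-361 amplicon the in vitro means lie below the untreated means at all 11 nucleotides from 137 to 151, and in the 47-297 amplicon at 8 of them.

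The second reading of the same positions was weaker. In Sertad2 47-297 the 11 nucleotides from 137 to 151 averaged 13.36 in untreated cells, 13.23 in ATP-depleted cells and 13.06 in vitro, a difference of −0.30 in vitro against untreated. The difference was negative at 8 of them, and 2, C144 and C150, were called lower. C150 was called in both amplicons. C142 and C139 differed by 0.17 and −0.01 there and A148 by 0.35, none of them called, so these single nucleotides were called in 1 of the 2 amplicons that read them. A148 read 5210, 25397 and 14358 CPM in vitro in Sertad2 47-297, where in vitro replicate 2 was highest. The 20-nt window 128 to 147 of Sertad2 47-297 fell by 0.29 (limma adjusted p = 0.049) with overlapping samples, and the call was lost without any 1 sample other than untreated replicate 2 or in vitro replicate 3.

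When the 2 Sertad2 amplicons were joined and folded as one sequence, positions 137 to 151 were predicted to pair with 290 to 309, at an unpaired probability of at most 0.017, and 159 with 283. C142 was predicted to pair with 304, A148 with 293 and C139 with 307. The counts that follow are of readings, so a position called in both amplicons counts in each. In this fold 15 of 15 called falls of Sertad2 were predicted paired, against 65.9% of its tested readings. A predicted partner at least 100 nt away was held by 11 of the 15, against 27.3% of its tested readings. By position this was 10 of 13 falls, against 39 of 134 tested. The fallen positions are not independent, as 7 lie in 1 stretch, 136 to 162. None of the 7 Sertad2 rises had so distant a partner. In Esco1 0 of 2 falls and 1 of 10 rises had one, against 13.4% of tested readings. The share over all amplicons is not given here. With each amplicon folded alone 10 of the 15 Sertad2 falls were predicted paired. Over all amplicons 71.5% of called falls were predicted paired in the joined fold, against 54.4% of tested nucleotides. On the partner strand 4 tested nucleotides, from 292 to 302, averaged 13.46 in untreated cells and 13.14 in vitro, and none was called. Of these, C292 and A298 were predicted paired with 149 and 143 and differed by −0.80 (limma adjusted p = 0.0834) and −0.05, while A300 and A302 were predicted unpaired, at probabilities of 0.995 and 0.993. A287, which lies on the same strand and was predicted unpaired at 0.974, rose by 0.55 (adjusted p = 0.0424). The joined fold was chosen after the data were seen.

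Further upstream, Sertad2 47-297 fell from 108 to 127. The window read 12.92, 12.97 and 12.93 in untreated cells, 12.93, 12.94 and 12.88 in ATP-depleted cells, and 12.56, 12.72 and 12.73 in vitro. All in vitro samples were lowest, and the falls of 0.27 against untreated (limma adjusted p = 0.0078) and 0.25 against ATP-depleted cells (adjusted p = 0.0114) were called. With only nucleotides whose mean was at least 0.5 times the A and C median, both calls were lost, at differences of −0.21 (adjusted p = 0.192 and 0.185). Its called nucleotides were C116, C120 and C123, with means of 3741, 3192 and 6677 CPM in untreated cells and 905, 932 and 1959 CPM in vitro. C182 was called lower in both amplicons, by 0.74 in 111-361 and 0.83 in 47-297. These calls were kept in 5 of 19 and 10 of 19 alternatives.

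Fewer Sertad2 nucleotides rose in vitro. C73 in Sertad2 47-297 read 4700, 5366 and 5597 CPM in untreated cells, 1045, 4282 and 4972 CPM in ATP-depleted cells, and 31888, 23775 and 8419 CPM in vitro. It rose by 1.40 against untreated (limma adjusted p = 0.0484) and by 1.80 against ATP-depleted cells (adjusted p = 0.0214), but in vitro replicate 3 lay near the in-cell samples. The call held in 4 of 18 alternatives against untreated and in 12 of 18 against ATP-depleted cells. C212 in Sertad2 111-361 rose by 0.85 (adjusted p = 0.0381), from 4078, 5424 and 6314 CPM to 9025, 14268 and 13074 CPM, and differed by −0.06 in the other amplicon. A313 and A322 rose by 0.74 (adjusted p = 0.0337) and 0.70 (adjusted p = 0.0279). A322 read 15930.5, 18279 and 12219 CPM in untreated cells and 28505, 29559 and 22720 CPM in vitro, with a like rise of 0.70 against ATP-depleted cells. The windows 208 to 227 and 248 to 267 of Sertad2 47-297 rose by 0.27 (adjusted p = 0.0146) and 0.23 (adjusted p = 0.0206). The first call ended without untreated replicate 2, and the second without any of 4 samples, untreated replicates 1 and 2 and in vitro replicates 2 and 3.

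In all, 5 of 20 Sertad2 windows and 2 of 20 Esco1 windows were called between in vitro and untreated, where 20.6% of all windows were. Against ATP-depleted cells the counts were 6 of 20 and 2 of 20, beside 23% of all windows. Of the 6 Sertad2 windows 4 rose, and some of these lie on or beside the stretch that fell. The window 148 to 167 of Sertad2 47-297 read 13.43, 13.38 and 13.28 in vitro, 13.09, 13.08 and 13.15 after ATP depletion, and 13.27, 13.17 and 13.32 in untreated cells. Its rise of 0.26 (limma adjusted p = 0.0121) was called and all in vitro samples lay above all ATP-depleted ones, but the call was lost with a pseudocount factor of 0.1 (adjusted p = 0.0602) and with the log2 values as deposited (adjusted p = 0.392). The window 153 to 172 of Sertad2 111-361 read 13.21, 13.15 and 13.13 in ATP-depleted cells and 13.32, 13.41 and 13.31 in vitro, again without overlap. Its rise of 0.18 (adjusted p = 0.0371) lost its call without any 1 ATP-depleted replicate or without in vitro replicate 1 or 2, at adjusted p of 0.0572 to 0.106. The windows 208 to 227 and 248 to 267 of Sertad2 47-297 rose against ATP-depleted cells too, by 0.27 (adjusted p = 0.0138) and 0.19 (adjusted p = 0.0406). The call of 248 to 267 was lost without any 1 ATP-depleted replicate, without untreated replicate 1, or without in vitro replicate 2 or 3.

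**Figure D2:**
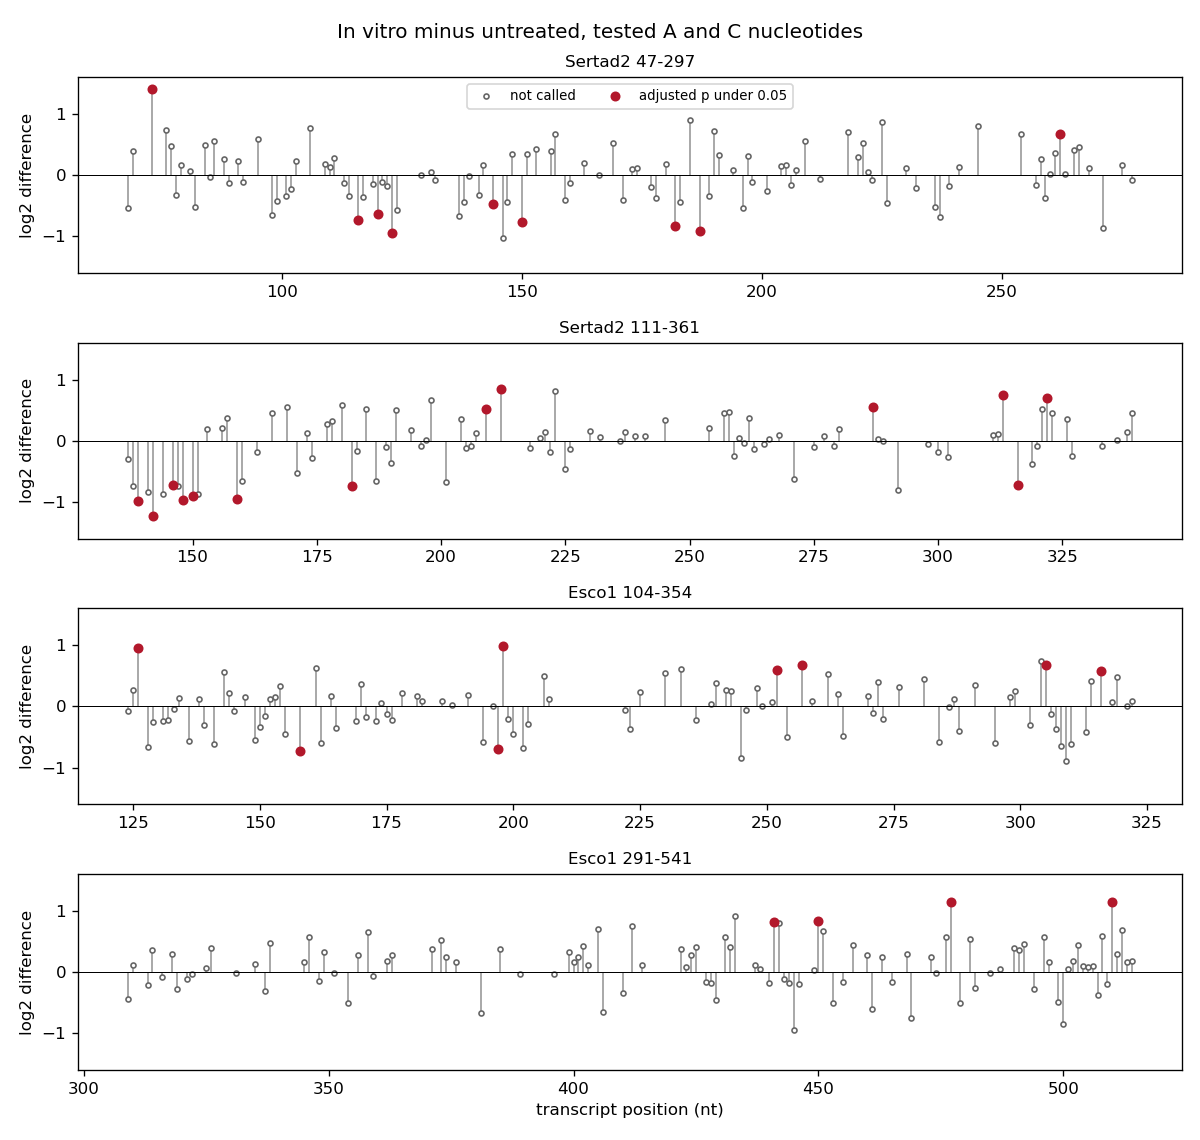
In vitro minus untreated difference, on the scale log2(CPM + 3196.78), of each tested A and C along the transcript position of the 4 amplicons. Filled points are nucleotides with a limma adjusted p under 0.05: 9 in Sertad2 47-297, 13 in Sertad2 111-361, 8 in Esco1 104-354 and 4 in Esco1 291-541. The falls of Sertad2 111-361 gather at its start, and all called nucleotides of Esco1 291-541 lie above 0.

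Between in vitro and untreated fewer Esco1 than Sertad2 nucleotides were called, and the Esco1 calls were mostly upward. The Esco1 libraries were shallower, with amplicon medians of 10493 and 6370 counts against 24181 and 14491 in Sertad2. At an unadjusted limma p under 0.05 the shares were 22.5% in Esco1 and 27.3% in Sertad2. That share over all amplicons is not given here for this comparison. Called or not, the in vitro samples lay above all untreated samples at 22 Esco1 nucleotides and below them at 20. Such counts over all amplicons are not given here, so these are not set against a background. Of 209 Esco1 nucleotides 12 were called, 10 higher and 2 lower, or 5.74% beside the 16.3% of all nucleotides. The rises were 7 A and 3 C, and both falls were C; over all amplicons 9.96% of A were called higher and 4.05% lower. The median difference was 0.17 for Esco1 A and −0.07 for Esco1 C. Without untreated replicate 2 the count was 4, without replicate 3 it was 6, without ATP-depleted replicate 2 it was 7, and the fit of the 6 compared samples gave 4. Of the 12 calls 2 were kept in all 9 fits that left out 1 sample, and each of the others was lost in 2 to 8 of them.

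Against untreated, A198 and A477 were called under all 19 alternatives each. A198 in Esco1 104-354 was predicted unpaired, with a probability of 0.9996. It read 14468, 13211 and 14096 CPM in untreated cells, 20631, 18361 and 19017 CPM in ATP-depleted cells, and 39375, 29927 and 24523 CPM in vitro. The 3 groups did not overlap, and the rise of 0.99 in vitro against untreated was called (SE 0.152, limma adjusted p = 0.00513). A477 in Esco1 291-541 was predicted paired, with an unpaired probability of 0.342. It read 3876, 6919 and 7945 CPM in untreated cells, 5959, 9119 and 7179 CPM in ATP-depleted cells, and 17549, 18025 and 16316 CPM in vitro. Every in vitro sample was above every in-cell sample, the in-cell groups overlapped, and the rises were 1.14 against untreated (adjusted p = 0.00577) and 0.96 against ATP-depleted cells (adjusted p = 0.0124). The second call was kept in 18 of 19 alternatives.

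Other Esco1 nucleotides also rose in vitro. C510 in Esco1 291-541 read 2769, 6288 and 1589 CPM in untreated cells and 10700, 13791 and 9218 CPM in vitro, a rise of 1.15 (limma adjusted p = 0.0175). C126 in Esco1 104-354 read 4915, 4524 and 4024 CPM in untreated cells, 11679, 6169 and 6186 CPM in ATP-depleted cells, and 15170, 11205 and 9401 CPM in vitro. Its rise of 0.96 against untreated was called (adjusted p = 0.0184), and here too the ATP-depleted samples lay above the untreated ones. A450 and A441 of Esco1 291-541 rose against ATP-depleted cells, by 0.87 (adjusted p = 0.036) and 0.67 (adjusted p = 0.0399), from 1979 and 3849 CPM to 6268 and 8137 CPM in the mean. C316, which Esco1 104-354 read as higher in vitro by 0.69 (adjusted p = 0.0237), differed by −0.01 in Esco1 291-541.

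The 2 Esco1 falls against untreated were C158 and C197 of Esco1 104-354, both predicted paired. C158 read 2977, 4017 and 3422 CPM in untreated cells and 1193, 426 and 945 CPM in vitro, and fell by 0.72 (limma adjusted p = 0.0293). C197, directly before the rising A198, read 1315, 2208 and 4024 CPM in untreated cells and 170, 142 and 448 CPM in vitro, on 0 to 93 counts, and fell by 0.70 (adjusted p = 0.0282). Against ATP-depleted cells C309, C136 and C469 fell by 1.32, 0.87 and 0.79, at adjusted p of 0.0297, 0.0246 and 0.0479. C309 was also read in Esco1 291-541, where the difference was 0.04.

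Both called Esco1 windows rose in vitro. Positions 509 to 516, the 8 bases at the end of Esco1 291-541 with 6 tested nucleotides, read 13.36, 13.23 and 13.34 in untreated cells, 13.40, 13.36 and 13.42 in ATP-depleted cells, and 13.73, 13.72 and 13.62 in vitro. The in vitro samples stood above all others, and the rise was 0.38 against untreated (limma adjusted p = 0.00181) and 0.29 against ATP-depleted cells (adjusted p = 0.00462). With each amplicon divided by its mean the second difference was 0.11 (adjusted p = 0.247) and its call was lost. Positions 223 to 242 of Esco1 104-354 rose by 0.18 (adjusted p = 0.019) and 0.24 (adjusted p = 0.00659). The first of these 2 values lost its call without untreated replicate 1 or 3 or in vitro replicate 2, at adjusted p of 0.0562 to 0.0598.

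Against ATP-depleted cells, 10 Esco1 nucleotides were called (7 higher, 3 lower) and 7 Sertad2 nucleotides (4 higher, 3 lower), or 4.78% and 3.41%, beside 14.9% of all nucleotides. Both in vitro comparisons share the in vitro samples. Besides those given above, C111 and C209 of Sertad2 rose by 0.67 and 0.51, and C144 of Sertad2 47-297 fell by 0.51, from 12995, 10238 and 11435 CPM to 8645, 6189 and 6751 CPM. Over all amplicons 8.31% were higher and 6.56% lower. The counts moved with single samples, and of these 17 calls 1, A477 of Esco1, was kept in all 9 fits that left out 1 sample. Esco1 had 2 without any 1 ATP-depleted replicate, 5 without in vitro replicate 2 and 6 without untreated replicate 2. Sertad2 had 1 without ATP-depleted replicate 2 or 3, 4 without ATP-depleted replicate 1 or untreated replicate 2 or 3, 3 without in vitro replicate 2 and 15 without in vitro replicate 3.

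**Figure D3:**
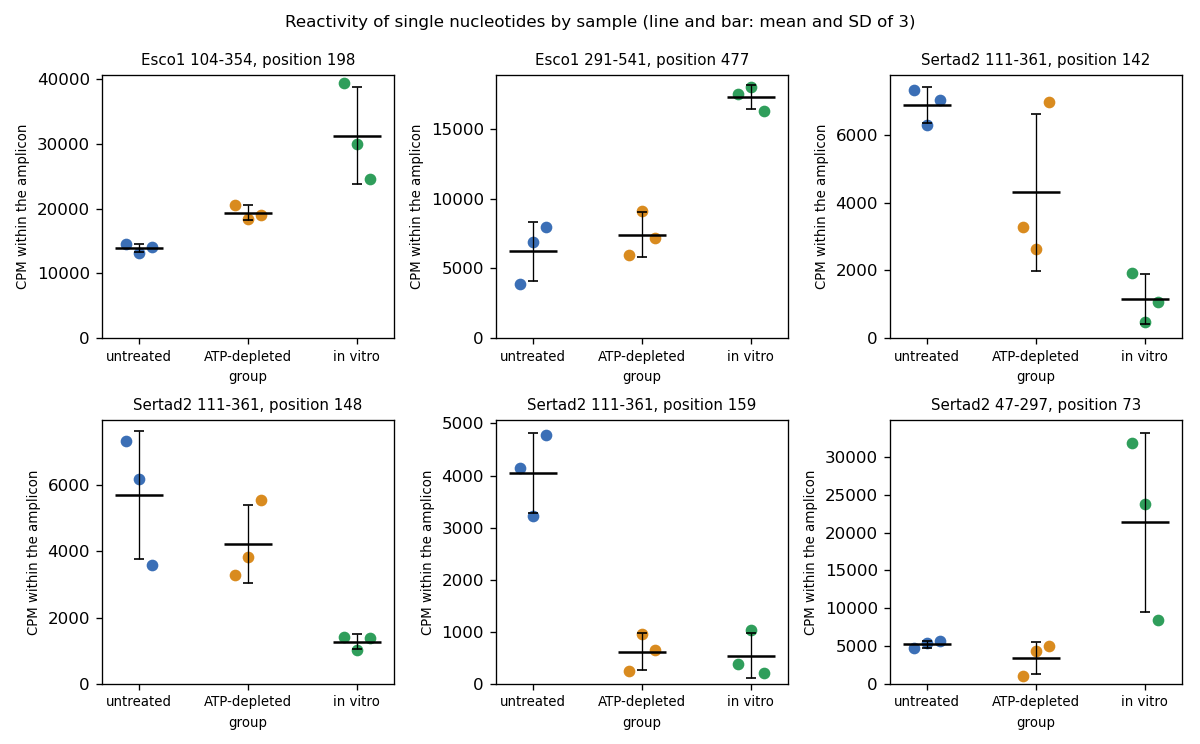
Reactivity in CPM within the amplicon of 6 nucleotides, 1 point per sample, with the mean and SD of 3 samples; each panel has its own axis from 0. Shown are the 5 nucleotides called between in vitro and untreated under every alternative, and position 73 of Sertad2, which had the largest rise. At position 159 of Sertad2 the ATP-depleted samples, 243 to 948 CPM, lie with the in vitro samples, and at position 477 of Esco1, 5959 to 9119 CPM, with the untreated ones.

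ATP depletion against untreated gave no call in either gene. Of 209 Esco1 and 205 Sertad2 nucleotides 0 passed limma's adjusted threshold, beside 0% of all nucleotides. At an unadjusted p under 0.05 there were 10 and 8, or 4.78% and 3.90%, beside 3.93% of all nucleotides. The smallest unadjusted p of Esco1 belonged to A248, which read 8515, 10170 and 9060 CPM in untreated cells and 15486, 11297 and 14471 CPM in ATP-depleted cells, a difference of 0.44 (adjusted p = 0.9999). A482 followed, with a difference of −0.65 and the same adjusted p. After C159, C182 of Sertad2 111-361 had the smallest p of its gene, with a difference of −0.62 and 13002, 7995 and 11311 CPM in untreated cells against 3504, 7879 and 6622 CPM. No window was called, beside 0% of all windows; 4 of 20 Sertad2 and 0 of 20 Esco1 windows had an unadjusted p under 0.05, beside 6.49% of all windows. The lowest adjusted p among the members' windows was 0.385, for Sertad2 153 to 172 of 111-361, whose ATP-depleted samples, 13.21, 13.15 and 13.13, all lay below the untreated ones, 13.45, 13.31 and 13.46.

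The Gini coefficient of an amplicon is 0 when all its A and C react equally and approaches 1 as the signal gathers on few of them. It rose in vitro in 3 of the 4 amplicons, where 82% of all amplicons were called and 80.1% were higher. In Esco1 104-354 it was 0.405, 0.320 and 0.345 in untreated cells, 0.409, 0.354 and 0.381 in ATP-depleted cells, and 0.479, 0.499 and 0.453 in vitro. The in vitro samples were above all others, and the differences were 0.121 against untreated (limma adjusted p = 0.00224) and 0.0957 against ATP-depleted cells (adjusted p = 0.00707, beside 80.7% of all amplicons called). In Sertad2 111-361 it was 0.381, 0.325 and 0.324 in untreated cells, 0.421, 0.347 and 0.354 in ATP-depleted cells, and 0.428, 0.479 and 0.432 in vitro, with differences of 0.103 (adjusted p = 0.00691) and 0.0725 (adjusted p = 0.03). Without ATP-depleted replicate 2 or 3 or in vitro replicate 2 the second call was lost. In Sertad2 47-297 the untreated samples gave 0.422, 0.383 and 0.400 and the refolded samples 0.547, 0.507 and 0.420, where replicate 3 overlapped the untreated range. That difference of 0.0899 (adjusted p = 0.0287) lost its call without untreated replicate 2 or 3 or in vitro replicate 1 or 2, and the one of 0.0997 against ATP-depleted cells (adjusted p = 0.0186) without ATP-depleted replicate 2 or in vitro replicate 1 or 2.

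Esco1 291-541 was not called. Its Gini coefficient was 0.457, 0.250 and 0.365 in untreated cells, 0.433, 0.266 and 0.310 in ATP-depleted cells, and 0.383, 0.373 and 0.337 in vitro, and the groups overlapped. The difference of 0.00728 in vitro against untreated had a 95% interval of −0.125 to 0.140 (limma adjusted p = 0.913), which holds the median of all amplicons, 0.0923. Only 9 of 161 amplicons had a smaller difference. The 2 deepest in-cell libraries, both replicate 2, gave the lowest values. After all 9 libraries were thinned to 3485 counts these 2 were still lowest, at 0.257 and 0.282, and the other in-cell libraries gave 0.325 to 0.458. Amplicons of other transcripts with the nearest group means of the Gini coefficient were Klf7 204-454, Pafah1b1 380-630 and Ptp4a2 465-715 for Esco1 291-541, and Hexim1 219-469, Cnot3 103-353 and Smad6 851-1101 for Esco1 104-354. For Sertad2 111-361 they were Ext1 2-252, Brd2 1023-1273 and Ncdn 0-250, and for Sertad2 47-297 Dusp16 412-662, Taok2 835-1085 and Hipk3 351-601; this is a description over 3 group means.

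For ATP depletion against untreated, limma's adjusted test called no Gini coefficient of the 4 amplicons and 0% of all amplicons. At an unadjusted p under 0.05 there were 13 of 161 amplicons (8.07%), none of Esco1 or Sertad2. The differences were 0.0303 in Sertad2 111-361, −0.00978 in Sertad2 47-297, 0.0248 in Esco1 104-354 and −0.0208 in Esco1 291-541, with 95% intervals that all held 0, such as −0.0310 to 0.0806 in Esco1 104-354. Mean log2 reactivity differed in 1 case: Esco1 291-541 was higher in vitro than in ATP-depleted cells by 0.136 (limma adjusted p = 0.0379), beside 13% of all amplicons called. The call was lost without ATP-depleted replicate 2 or 3, untreated replicate 1, or in vitro replicate 1 or 2. Against untreated the 0.127 was not called (adjusted p = 0.0604, beside 8.7%). After each amplicon was divided by its mean A and C reactivity these 2 differences were −0.0234 and −0.00869. ATP depletion gave no called mean, beside 0% of all amplicons.

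How well reactivity followed the predicted fold was measured by the area under the curve (AUC) with which it separated nucleotides predicted unpaired from those predicted paired, 0.5 being no separation and 1 complete. Esco1 104-354 gave 0.852, 0.854 and 0.876 in untreated cells, 0.875, 0.897 and 0.898 in ATP-depleted cells, and 0.850, 0.754 and 0.862 in vitro. The in-cell values were the highest of the 4 amplicons, and no difference between groups was called. Medians there in untreated cells were 10384, 9881 and 10330 CPM for predicted unpaired and 3807, 4452 and 4541 CPM for predicted paired nucleotides. Esco1 291-541 had the lowest AUC in cells, at 0.677, 0.664 and 0.602 in untreated and 0.608, 0.682 and 0.653 in ATP-depleted cells, and rose to 0.697, 0.780 and 0.750 in vitro. All in vitro samples exceeded all in-cell samples, and the rise of 0.0947 was called against both groups (limma adjusted p = 0.0391 and 0.039), beside 22.4% and 24.8% of all amplicons. The call against untreated was lost in 5 of the 9 fits that left out 1 sample, at adjusted p up to 0.132 (without ATP-depleted replicate 3, untreated replicate 2 or 3, or in vitro replicate 2 or 3). Against ATP-depleted cells it was lost without ATP-depleted replicate 1 or 3, untreated replicate 2, or in vitro replicate 2 or 3.

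In Esco1 291-541 the medians of predicted unpaired nucleotides were 8306, 5993 and 6500 CPM in untreated cells and 8988, 9442 and 8601 CPM in vitro, while predicted paired ones were 4098, 4984 and 5056 CPM and 4537, 5093 and 4821 CPM. The in vitro samples were higher for unpaired nucleotides and overlapped the untreated samples for paired ones. In Sertad2 111-361 predicted paired nucleotides had medians of 5926, 5173 and 5360 CPM in untreated cells, 4198, 3890 and 5071 CPM in ATP-depleted cells, and 4051, 3072 and 3977 CPM in vitro. The untreated samples were highest. The AUC of Sertad2 111-361, 0.750 to 0.826 over the 9 samples, differed by 0.0343 in vitro against untreated (limma adjusted p = 0.174), and with the joined fold by 0.0600 (adjusted p = 0.0468). The joined fold was chosen after the data were seen and pairs the stretch that fell, so the second value is not separate support. For Sertad2 47-297 the untreated samples gave 0.725, 0.748 and 0.716 and the refolded samples 0.624, 0.663 and 0.740, a difference of −0.0538 that was not called. For ATP depletion no AUC of the 4 amplicons was called by limma's adjusted test, beside 0.621% of all amplicons.

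**Figure D4:**
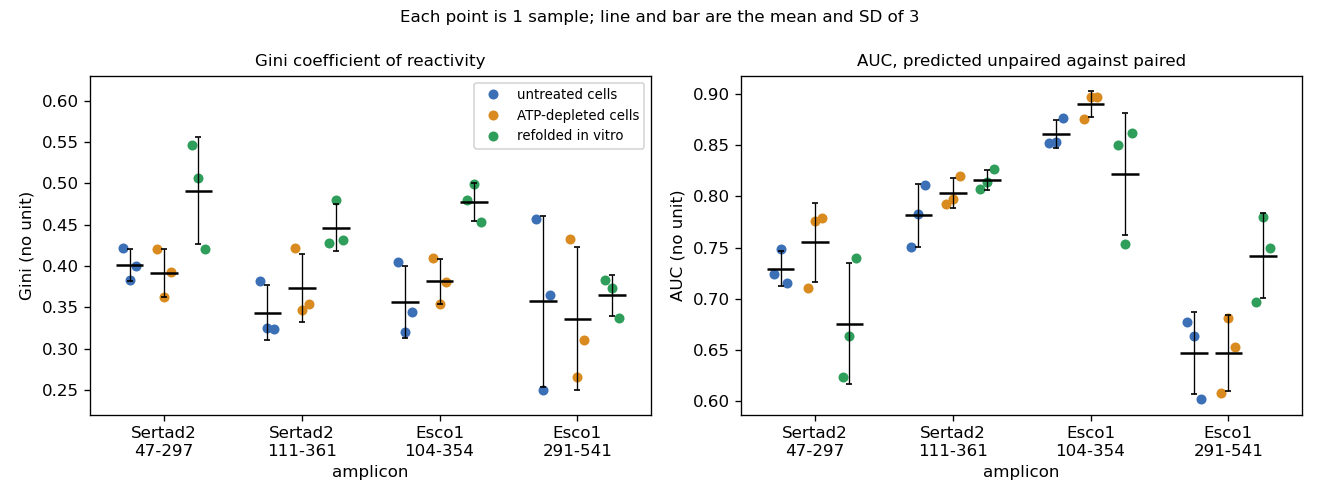
Gini coefficient of A and C reactivity (left) and AUC of reactivity for predicted unpaired against paired nucleotides (right) in each sample of the 4 amplicons. Points are samples, the line and bar the mean and SD of 3. In vitro Gini values are above all in-cell values in Esco1 104-354 and Sertad2 111-361, and the AUC is so in Esco1 291-541; vertical axes do not start at 0.

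Positions read by both amplicons of a gene served as a second reading of the same samples. For Sertad2 this covered 145 positions, 133 to 277, with 71 tested nucleotides, and log2 reactivity of the 2 readings correlated across nucleotides with r of 0.570 to 0.864 within samples, lowest in in vitro replicate 2. For in vitro against untreated, 2 nucleotides were called in both readings, both lower, and 10 in 1 reading, of which 7 had the same sign in the other and 3 the opposite. Esco1 had 15 such positions, 309 to 323, with 9 tested nucleotides and r of 0.267 to 0.687. Its 1 called nucleotide there, C316, had the opposite sign in the second reading.

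In each gene 5 AUG triplets were read. Their A nucleotides lay at 276, 338, 363, 389 and 433 in Esco1 and at 132, 226, 268, 302 and 333 in Sertad2; which of them starts a coding sequence was not examined. None was called in any comparison. The A at 433 of Esco1 read 111, 3722 and 6500 CPM in untreated cells and 12070, 7954 and 5438 CPM in vitro, a difference of 0.91 (limma adjusted p = 0.187) with overlapping samples. Of a list of 45 cohesin, SERTAD, E2F and cyclin genes, 3 others were in the table. Ctcf, which encodes the DNA-binding protein at which cohesin halts, had 63 of 202 nucleotides called between in vitro and untreated, 37 higher and 26 lower, or 31.2%. Nipbl, which encodes the cohesin loader, had 19 of 108 (17.6%), and E2f3, which encodes a transcription factor of the cell cycle, had 6 of 115 (5.22%), beside 16.3% of all nucleotides. Their libraries held 11857 to 92569, 22985 to 96990 and 9007 to 59069 counts. The Gini coefficient was called higher in vitro in both Ctcf amplicons and in those of Nipbl and E2f3, by 0.0808 to 0.148, beside 80.1% of all amplicons called higher, and ATP depletion gave no called nucleotide in these 3 genes, beside 0% of all nucleotides.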

How the data were processed

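The authors deposited one table of log2 values per nucleotide and sample. The submitters' processing notes name bcl2fastq, Bowtie2 and limma without versions or roles; the mutation counter and genome build were not given in the sources used here. Each deposited value equalled the log2 of a whole count plus 0.5, per 1000000 (CPM) of a size particular to its amplicon library. The tolerance of 0.0001 tested only that the counts were whole, not that this size was the sum of the library. The CPM, or 2 to the power of the log2 value, served as reactivity. A and C with counts in at least 1 sample were fitted with limma 3.58.1 in R 4.3.3 (lmFit, contrasts.fit, eBayes) as log2(CPM + 3196.78), where 3196.78 is 0.5 times the median CPM (6393.56) of A and C pooled, over all 9 samples with a mean per group. The same fit tested 20-nt windows with at least 5 tested nucleotides, and each amplicon's mean, Gini coefficient and AUC against ViennaRNA 2.7.2 pairing probabilities at 37 °C (unpaired at 0.5 or more). Tests were two-sided and adjusted over all features of a kind. The nucleotide fit of in vitro against untreated was tested on simulated data, and the Gini and AUC functions on short vectors of known result. The fits of windows, means, Gini coefficients and AUC were not simulated. Named nucleotides are, per gene and comparison, up to 4 largest called rises and 4 largest called falls without overlap between samples, or the 2 smallest p where none was called; others are named as members of called stretches or second readings, after their values were seen. Members and lists were chosen with earlier results of these data known. Of 69 transcripts, 68 were named through RefSeq.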

Additional observations from a re-analysis of the deposited data

Results flagged for a closer look

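Signal also appeared at bases that the comparisons did not use. In untreated cells the mean over 3 samples of the median reactivity was 697 CPM for Esco1 G, 3550 CPM for Esco1 T, 884 CPM for Sertad2 G and 4240 CPM for Sertad2 T, where A and C of Esco1 gave 8086 and 4565 CPM. In untreated cells T was lower than C in the mean in both genes, with Sertad2 C at 4529 CPM. In ATP-depleted cells T was the higher of the pair, at 4591 against 4089 CPM in Esco1 and 5270 against 4274 CPM in Sertad2. Over all amplicons T was also higher in ATP-depleted than in untreated cells, at 4270 against 3897 CPM. There C was lower, at 4598 against 4829 CPM, and stayed above T. In vitro the means of T and C were 3324 and 3673 CPM in Esco1, and 4461 and 3757 CPM in Sertad2. No sample without DMS was analysed here to set a background. In the ATP-depleted samples Esco1 T gave 3990, 5778 and 4005 CPM and Sertad2 T 5306, 5885 and 4620 CPM. Untreated Esco1 T gave 2908, 4143 and 3611 CPM, so the 2 groups overlapped, and no test was made.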

How the results depend on the processing

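The 51 calls of single nucleotides kept their sign in 940 of 940 recomputed differences, and no called window, Gini or AUC difference changed sign; the called mean of Esco1 291-541 did so in 1 alternative. Given are counts of calls in Esco1 and Sertad2 together unless a gene is named, then differences that changed sign; the cause was not tested. Leaving out 25 nt at each amplicon end gave 13 and 3 Sertad2 nucleotides (in vitro against untreated and against ATP-depleted), 4 and 4 windows, 1 and 2 means and, against ATP-depleted, 2 AUC values, with means of 0.0337 (Sertad2 111-361) and −0.0591 and −0.0244 (Sertad2 47-297), a Gini difference of 0.00253 and an AUC difference of 0.000244. Thinning to equal depth gave 6 Esco1 and 14 Sertad2 nucleotides, then 4 and 4 against ATP-depleted, with means of −0.00187 and −0.000939. The 6 compared samples alone gave 4 and 8 nucleotides, then 6 and 4, and 0 AUC calls. Dividing by the amplicon mean gave 6 and 11 nucleotides against ATP-depleted and 3 and 3 means, with a window of 0.0169 and means of −0.0882, −0.00869, −0.0653, −0.0962, −0.0963, −0.0234, 0.00797 and 0.0147. The log2 values as deposited gave 5 Esco1 nucleotides and 4 windows against ATP-depleted and 1 and 0 means, with windows of −0.198 and 0.0333 and means of −0.150, −0.0412, −0.158, −0.161 and 0.00748. Windows of 30 nt gave 4 calls. A pseudocount factor of 0.1 gave 2 means, with windows of −0.0155 and 0.0206 and means of −0.0693, −0.0635 and −0.0694, and a factor of 1 gave a window of 0.00911 and a mean of 0.0134. Trend and robust options gave 1 mean. A alone gave 1 Gini call against ATP-depleted and 0 AUC calls, with Gini differences of −0.0299 and −0.00717 and AUC differences of −0.0104, −0.0217 and −0.0194; C alone gave 2 and 0 AUC calls and a difference of 0.0571. Nucleotides with a mean of at least 0.5 times the median gave 0 and 0 AUC calls, windows of −0.111 and 0.268, a mean of 0.0436, a Gini difference of −0.0189 and an AUC difference of −0.00205. The joined fold gave 2 AUC calls and AUC differences of 0.00195, −0.0164 and 0.00700; the minimum free energy structure gave 0.00730, and probabilities of 0.8 and 0.2 gave 0.0394. Leaving out 1 sample gave, in vitro against untreated, 4 to 15 Esco1 and 6 to 21 Sertad2 nucleotides, 4 to 7 windows, 0 to 1 means and 0 to 1 AUC calls, and against ATP-depleted 2 to 10 and 1 to 15 nucleotides, 0 to 1 means, 1 to 3 Gini and 0 to 2 AUC calls. It moved, across 0, Gini differences of Esco1 291-541 (−0.0745 to 0.0290, −0.00718 to 0.0765, −0.0465 to 0.0571) and Sertad2 47-297 (−0.0241 to 0.00495), an AUC difference (−0.0228 to 0.0197), means (−0.0108 to 0.0253, −0.0242 to 0.0120, −0.0425 to 0.0202, −0.0277 to 0.0109, −0.00112 to 0.0203, −0.0165 to 0.0220) and 1 window (−0.0327 to 0.0443). Deviations of same-numbered samples of different groups correlated at −0.0177 to 0.1 (mean 0.0256), and those of differently numbered samples at −0.0537 to 0.0151 (mean −0.0126). The 3 same-numbered pairs of untreated and ATP-depleted samples gave 0.0406, 0.1 and 0.0309. Whether samples of 1 number share a batch was not tested. With the replicate number as a block, 11 Esco1 and 18 Sertad2 nucleotides were called against untreated and 8 and 6 against ATP-depleted. Libraries of 3485 to 44605 counts limit what single nucleotides can show.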
